A study of Homo sapiens with 24 samples.

Results

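The genes described here are those whose response to cyclocreatine differed between UT-7 and UCSD-AML1, 2 human acute myeloid leukemia cell lines. They were found from 16 of the 24 libraries of the series, 4 each of UT-7 with vehicle, UT-7 with cyclocreatine, UCSD-AML1 with vehicle and UCSD-AML1 with cyclocreatine. The drug was given at 3 mM for 24 hours, and no other agent or genetic change is named in the labels. The measure was the interaction of line and treatment, the log2 fold change in UT-7 minus that in UCSD-AML1, so a positive value means a higher response in UT-7. Of 13778 genes tested, 4808 (34.9%) passed at an adjusted p under 0.05 and are called different. Adjusted p-values are from edgeR's quasi-likelihood test with Benjamini-Hochberg adjustment over all 13778 genes, and values after ± are standard errors for log2 changes and SD (n = 4) for levels.

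Cyclocreatine is a creatine analog that enters cells through the creatine transporter and is phosphorylated by creatine kinases. Its phosphate gives up its phosphoryl group slowly, so the creatine kinase shuttle that buffers ATP is slowed. The study's design names both lines as driven by EVI1, the transcription factor that MECOM encodes. UT-7 is a factor-dependent megakaryoblastic line that can also take an erythroid course, and in UCSD-AML1 the MECOM locus on chromosome 3 is rearranged. A single line stands for each source, so the many features in which these lines differ cannot be told apart as the origin of a difference.

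The libraries held between 12794998 and 17414130 counts. Levels are given as CPM, counts scaled to the library size with TMM factors, and are not compared between genes because they are not per length. The first principal component, with 94.9% of the variance, separated the lines, the second (2.14%) the treatments and the third (0.752%) the response of one line from that of the other. Of the markers set for UT-7, ITGA2B, GATA1, KLF1 and EPOR stood at 920.9, 274.8, 214.9 and 208.3 CPM in its vehicle libraries, while the platelet gene GP9 (0.195) and the progenitor gene CD34 (2.26) were near the floor. KIT stood there at 890.5 CPM and the integrin ITGB3 at 23.2. ITGA2B, KIT and ITGB3 stood at 589.8, 179.0 and 205.6 CPM in UCSD-AML1 vehicle libraries. In UCSD-AML1 vehicle libraries MECOM stood at 415.9 CPM, CD34 at 589.4 and the myeloid gene CD33 at 51.5, and MPO, a granule enzyme, was near 0 with 5 counts over the group. CD33 and GATA2, though set as markers for UCSD-AML1, were higher in UT-7 vehicle libraries. CD33 stood there at 117.9 CPM, and GATA2 at 758.5 against 404.9 in UCSD-AML1. UCSD-AML1 also expressed 10 of 16 lymphoid markers at 1 CPM or more, led by IL7R at 106.5 CPM, and the endothelial gene CDH5 at 261.3 CPM. MS4A1 stood at 0 counts in all 16 libraries. In UT-7 vehicle libraries MECOM, which encodes EVI1, stood at 6.53 CPM. The summed level of 23 granulocyte and monocyte markers went from between 302.8 and 314.6 CPM to between 284.6 and 297.2 under cyclocreatine in UT-7. In UCSD-AML1 it went from between 855.5 and 914.4 to between 961.3 and 986.1 CPM, with ELANE, PRTN3 and S100A8 at 0, and the part of this shift in the differences was not tested. Nothing in the labels ties the 4 libraries of a group to separate cultures, so the p-values measure no more than the spread among these samples, which may be technical.

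Cyclocreatine changed most genes in both lines, and the differences between the lines were mostly small. In UT-7, 7923 genes (57.5%) passed, 3943 (28.6%) higher and 3980 (28.9%) lower. In UCSD-AML1, 7320 genes (53.1%) passed, 3581 (26%) higher and 3739 (27.1%) lower. Of the 4808 called differences, 2424 (17.6% of the genes tested) were higher in UT-7 and 2384 (17.3%) lower, and the middle size among those called was 0.324 (log2). This split moved with the scaling, to 2297 higher and 2511 lower with DESeq2 size factors and 2100 and 2759 with library totals alone. Other settings moved it too, to 2291 and 2405 with a stricter filter on low counts and 2077 and 2305 with the DESeq2 Wald test. Only 400 genes (2.9%) differed by at least 1 on the log2 scale, 220 higher and 180 lower.

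The called differences took several shapes. The response passed in UT-7 and not in UCSD-AML1 for 1561 genes (32.5% of those called) and in UCSD-AML1 and not in UT-7 for 1070 (22.3%). It passed in both lines in the same direction for 882 genes with the larger change in UT-7 (18.3%) and 438 with the larger change in UCSD-AML1 (9.11%). In 789 genes (16.4%) it passed in both lines with opposite directions, 413 up in UT-7 and down in UCSD-AML1 and 376 the reverse. The other 68 genes passed in neither line alone. With all 24 libraries of the series in 1 fit, 3351 differences passed, of which 3335 were among the 4808, and opposite directions fell to 466 genes.

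**Figure D1:**
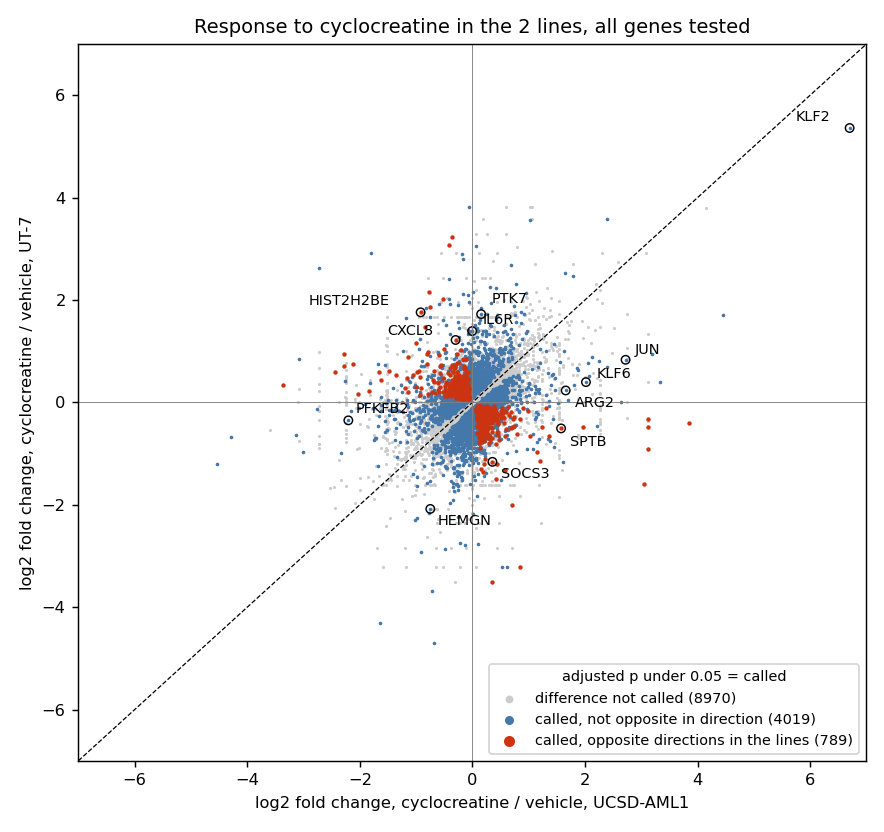
Each point is a gene tested; the x axis is its log2 fold change under cyclocreatine in UCSD-AML1 and the y axis that in UT-7, with the dashed line marking equal responses. Red marks the 789 genes called in both lines with opposite directions, blue the other called differences and grey the genes not called; KLF2 lies far up, and KLF2, JUN, KLF6, ARG2, SPTB and SOCS3 lie to the right of the dashed line.

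Base composition moved with the difference. With 12858 genes ordered by GC content and cut into 5 equal bins, from a median of 38.7% to one of 62.2%, the median difference went from 0.11 to -0.13 on the log2 scale. The trend lay in UCSD-AML1, whose median response went from -0.12 to 0.14, while that of UT-7 stayed between -0.01 and 0.01. With the trend removed, 4483 differences passed, and 3608 of the 4608 called genes with a GC value passed again in the same direction (78.3%). Transcript length moved with the difference too. From the bin of shortest to that of longest transcripts, the median difference went from -0.06 to 0.10 and the UCSD-AML1 response from 0.08 to -0.07. With the length trend removed, 4730 differences passed, and 4135 of the 4608 passed again in the same direction (89.7%). What set the trends was not tested. Calls of named genes lost with either trend removed are given beside the genes.

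The vehicle levels differed between the lines in 12051 genes (87.5%) and the levels under cyclocreatine in 12071 (87.6%). Genes with at least 5 CPM in both vehicle groups held most called differences, 4161 of 9088 (45.8%), but only 57 of these reached 1 on the log2 scale. Within them, the share called was 43.9% of 7084 genes with vehicle levels within 2-fold, 50.8% of 1837 genes 2-fold to 8-fold apart and 71.9% of 167 genes over 8-fold apart. The median size of the difference in these classes was 0.148, 0.190 and 0.328. Of the 67 genes over 8-fold higher in UT-7, 26 had a higher and 20 a lower response there, and of the 100 over 8-fold higher in UCSD-AML1, 35 had a higher and 39 a lower response in UT-7. Differences of both signs were thus found at either side of the gap. Most gene lists below are set beside the 34.9% called among all genes, while 45.8% is the share among genes with at least 5 CPM in both vehicle groups.

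The share called was lower among genes near the floor in one line. Of 488 genes with at least 5 CPM in UT-7 vehicle and under 1 CPM in UCSD-AML1 vehicle, 48 were called (9.84%), and of 574 the other way round, 54 (9.41%). Among all others, 545 of 3628 passed, and these held 257 of the 400 differences of at least 1. A low count in one line limits what can be detected there, so the low share does not show that these genes respond alike. The vehicle libraries enter both the level and the response, and no correlation between them is given.

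**Figure D2:**
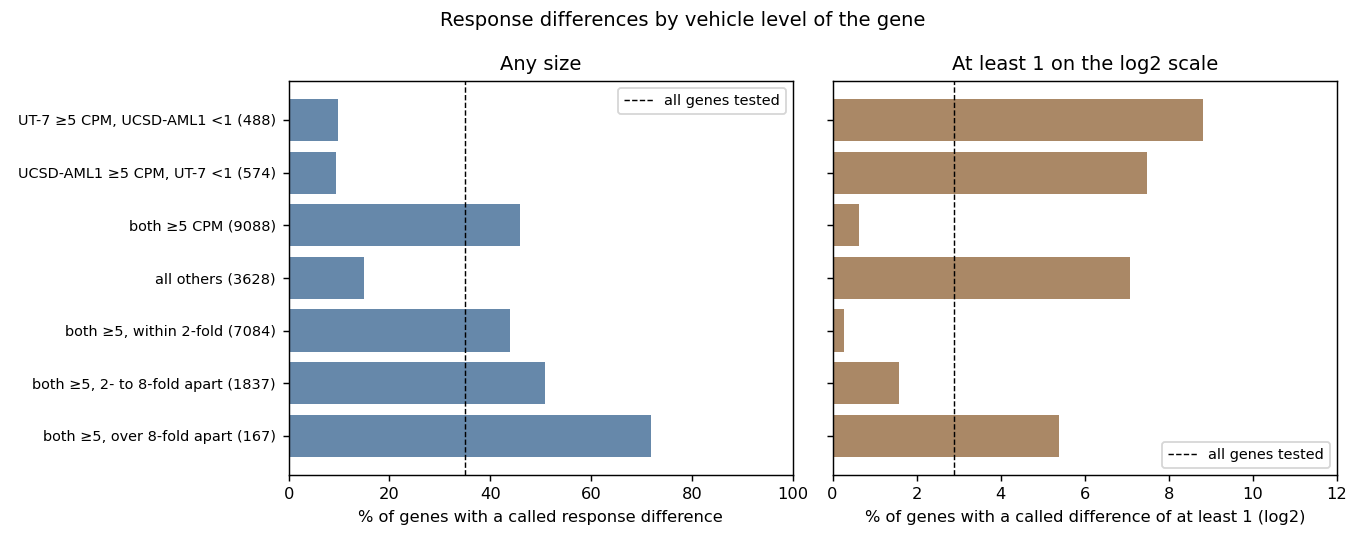
Bars show the percent of genes in each class of vehicle level whose response difference was called, at any size (left) and at 1 or more on the log2 scale (right), with the number of genes in brackets and the share over all genes tested as a dashed line. Genes with at least 5 CPM in both lines exceed the dashed line at any size (45.8%) and fall short of it at 1 or more (0.627%).

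In 247 called genes (5.14%) the order of the lines turned over, with the gap called in opposite directions in vehicle and under cyclocreatine. SPTAN1, which encodes the non-erythroid alpha spectrin of the membrane skeleton, stood in UT-7 at 129, 123, 124 and 131 CPM with vehicle and 322, 326, 323 and 322 CPM with cyclocreatine. The UCSD-AML1 libraries read 257, 271, 252 and 248 CPM with vehicle and 308, 310.4, 286 and 305 CPM with cyclocreatine. Vehicle and treated libraries did not overlap in either line, and UT-7 went from the lower to the higher level, with a difference in response of 1.12 ± 0.04 (adjusted p = 1.12e-34). GOLGB1, the Golgi tether giantin, rose from 82.8 to 160.0 CPM in UT-7 and fell from 148 to 123 in UCSD-AML1 (difference 1.23 ± 0.10, adjusted p = 3.74e-07). A further pair crossed downward in UT-7. SLC2A6, a sugar transporter of the GLUT family, fell from 14.5 to 5.02 CPM there against 12.5 to 9.67 in UCSD-AML1 (-1.16 ± 0.14), and CLCN2, a chloride channel, from 7.35 to 4.62 against 4.58 to 5.67 (-0.98 ± 0.17). For SLC2A6 the vehicle libraries of the lines overlapped, at 13.03 to 16.08 CPM in UT-7 and 10.78 to 13.84 in UCSD-AML1. With all 24 libraries in the fit, 155 genes turned over.

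JUN, KLF6, NR4A1 and KLF2, transcription factors induced early by growth factors or stress, rose in both lines and further in UCSD-AML1. JUN encodes a subunit of the transcription factor AP-1. In UT-7 it stood at 27.5, 25.6, 23.7 and 26.4 CPM with vehicle and 48.0, 45.3, 45.7 and 44.4 CPM with cyclocreatine. UCSD-AML1 gave 2.52, 1.83, 1.53 and 1.54 CPM with vehicle and 12.4, 11.4, 13.04 and 13.1 CPM with cyclocreatine. JUN thus rose in both lines with no overlap of treated and vehicle libraries, 1.78-fold in UT-7 and 6.59-fold in UCSD-AML1, whose treated libraries stayed below the UT-7 vehicle libraries (difference -1.89 ± 0.14, adjusted p = 7.96e-19).

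KLF6, a zinc finger factor induced by many stresses, also rose in both lines and further in UCSD-AML1. Its UT-7 libraries read 87.6, 82.9, 88.6 and 84.8 CPM with vehicle and 112, 119, 107 and 115 CPM with cyclocreatine. Its UCSD-AML1 libraries read 19.6, 19.4, 19 and 20.1 CPM with vehicle and 76.0, 77.8, 79.2 and 83.5 CPM with cyclocreatine. KLF6 rose 4.05-fold in UCSD-AML1, from a level 4.40-fold below that of UT-7 to one 1.43-fold below it, and 1.32-fold in UT-7 (difference -1.62 ± 0.06, adjusted p = 1.12e-34). The orphan nuclear receptor NR4A1 went from 5.003, 5.90, 6.37 and 8.43 to 12.3, 11.7, 8.83 and 11.7 CPM in UT-7 and from 1.89, 2.27, 2.37 and 1.28 to 9.01, 10.1, 9.32 and 8.79 CPM in UCSD-AML1 (-1.45 ± 0.20, 1.62e-08). Treated and vehicle libraries of NR4A1 stood apart in both lines.

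KLF2, a Krüppel-like factor of quiescent blood and endothelial cells, was nearly silent with vehicle in both lines, at 21 counts over the 4 UT-7 and 31 over the 4 UCSD-AML1 libraries. Its vehicle levels were 0.435, 0.284, 0.394 and 0.383 CPM in UT-7 and 0.573, 0.252, 0.557 and 0.605 CPM in UCSD-AML1, which overlap. Under cyclocreatine it reached 16.5, 15.7, 13.9 and 16.6 CPM in UT-7 and 49.5, 48.9, 54.4 and 57.3 CPM in UCSD-AML1, which do not. The response was 5.36 on the log2 scale in UT-7 and 6.70 in UCSD-AML1, and the difference of -1.34 ± 0.44 (adjusted p = 0.0119) rests on these low vehicle counts.

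The list of MAPK feedback and immediate early genes as a whole showed no common direction. Of 26 tested members, 8 had a higher and 11 a lower response in UT-7 (73.1% called, against 34.9% of all genes), with a median difference of -0.02 against 0.00 over all genes tested. With all 24 libraries in the fit the 8 became 5. The median was positive with the GC trend removed and without any 1 of 7 single libraries, up to 0.11 without UCSD-AML1 vehicle replicate 3, and -0.26 with the stricter filter on low counts. ETV5, an ETS factor induced by ERK, rose from 37.9 to 43.8 CPM in UT-7 and fell from 58.7 to 35.6 in UCSD-AML1 (0.93 ± 0.08, adjusted p = 2.15e-16).

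Most genes of the unfolded protein response of the endoplasmic reticulum rose in UT-7 and most fell in UCSD-AML1. This pathway raises chaperones when unfolded proteins gather in the organelle, through the sensors IRE1, PERK and ATF6 and the factor XBP1. Of 21 tested genes, 18 had a higher and 0 a lower response in UT-7 (85.7% called, against 34.9% of all genes), with a median difference of 0.35. In UT-7, 13 rose and 2 fell, while in UCSD-AML1 3 rose and 15 fell, and 7 were called up in UT-7 and down in UCSD-AML1.

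HSPA5, the chaperone BiP, stood in UT-7 at 504, 503, 512 and 494 CPM with vehicle and 704, 695, 667 and 702 CPM with cyclocreatine. Levels in UCSD-AML1 were 448, 452, 474 and 444 CPM with vehicle and 408, 402, 404 and 391 CPM with cyclocreatine. It rose 1.37-fold in UT-7 and fell 1.13-fold in UCSD-AML1 with no overlap in either (difference 0.64 ± 0.04, adjusted p = 6.03e-24). XBP1 went from 119, 120.1, 121 and 117 to 146, 150.5, 142 and 148 CPM in UT-7. In UCSD-AML1 it went from 690.4, 667, 665 and 671 to 438, 462, 466 and 439 CPM, a fall of 1.49-fold from a vehicle level 5.65-fold above that of UT-7 (difference 0.88 ± 0.04, 2.77e-29). The counts do not separate the spliced from the unspliced form of XBP1. The glucose-regulated chaperone HSP90B1 (0.46 ± 0.04) and the calcium-binding chaperone CALR (0.35 ± 0.04) likewise rose in UT-7 and fell in UCSD-AML1. With the GC trend removed 18 of the 21 genes were still called higher, and with all 24 libraries in the fit 14 were.

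The promoters of this list can be set beside the values. The element that ATF6 binds with NF-Y, named ERSE, was searched as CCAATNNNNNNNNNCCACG on both strands in the window from 250 bases before to 50 after the RefSeq start (GRCh38.p14). It was found in 6 of the 21 members (28.6%), HSPA5, HSP90B1, CALR, CANX, XBP1 and CRELD2, in 0.0806% of all 27305 promoters of that length and in 0.129% of those of the genes tested. Of the genes tested, 10819 matched a promoter by symbol or synonym. The stretches before the start of HSPA5 (chr9:125241384-125241493, minus strand, from 150 to 41 bases before the start) and XBP1 (chr22:28800570-28800719, minus strand, the last 150 bases before the start) are shown 5′ to 3′ with the ERSE letters in capitals.
HSPA5: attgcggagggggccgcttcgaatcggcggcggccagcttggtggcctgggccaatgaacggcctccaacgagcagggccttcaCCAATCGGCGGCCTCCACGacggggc
XBP1: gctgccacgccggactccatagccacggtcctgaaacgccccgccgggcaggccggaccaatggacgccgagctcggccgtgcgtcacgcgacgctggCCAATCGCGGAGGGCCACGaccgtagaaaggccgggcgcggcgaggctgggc
The shorter CCAAT, which lies inside ERSE, was found in 18 of the 21 (85.7%), in 35.7% of all promoters and in 36.7% of those of the genes tested. A match describes letters and not binding. The shares depend on which genes the list holds, and a relation to the response difference was not tested.

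Mitotic genes had higher responses in UT-7 and DNA replication genes lower ones. Of 40 G2/M and mitosis genes, 33 had a higher and 0 a lower response in UT-7 (82.5% called, against 34.9% of all genes). Their median difference was 0.31. In UT-7 30 rose and 1 fell, in UCSD-AML1 4 rose and 22 fell, and 17 were up in UT-7 and down in UCSD-AML1. Of 40 genes of G1/S and DNA replication, 0 had a higher and 29 a lower response in UT-7 (72.5% called), with a median of -0.27. In UT-7 1 rose and 33 fell, against 13 and 16 in UCSD-AML1. In these bulk samples a change in the share of cells in a phase and a change in RNA per cell cannot be told apart.

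DLGAP5, a spindle assembly factor, stood in UT-7 at 90.3, 89.6, 92.5 and 92.4 CPM with vehicle and 121, 124.6, 119 and 119.8 CPM with cyclocreatine. In UCSD-AML1 it stood at 106, 106, 109 and 105 CPM with vehicle and 83.5, 80.4, 89.1 and 83.0 CPM with cyclocreatine. It rose in UT-7 and fell in UCSD-AML1 with no overlap of the groups within a line (difference 0.75 ± 0.05, adjusted p = 1.98e-21). The mitotic checkpoint kinase BUB1 (0.58 ± 0.04), the cytokinesis kinesin KIF20A (0.65 ± 0.06) and the spindle pole protein ASPM (0.55 ± 0.05) also rose in UT-7 and fell in UCSD-AML1.

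The MCM genes encode the ring helicase that unwinds DNA at replication origins. MCM3 stood in UT-7 at 572, 561, 584 and 573 CPM with vehicle and 364, 359, 374 and 366 CPM with cyclocreatine. The UCSD-AML1 libraries read 458, 465, 470.0 and 450.1 CPM with vehicle and 467, 473, 461 and 476 CPM with cyclocreatine. It fell 1.57-fold in UT-7, while in UCSD-AML1 the groups overlapped and the response did not pass (0.03, adjusted p = 0.433), and the difference was -0.67 ± 0.04 (adjusted p = 1.35e-25). MCM7 did likewise (-0.59 ± 0.04). MCM5 (-0.47 ± 0.04) and MCM2 (-0.43 ± 0.04) fell in UT-7 and rose in UCSD-AML1, from 430.5 to 508 CPM for MCM2. With the GC trend removed 29 of the 40 were called lower and 0 higher, and 33 of 39 G2/M genes with a GC value were called higher and 1 lower.

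Promoter letters of these lists are shown for the members with large values. The E2F site was searched as TTTCCCGC, TTTCGCGC and TTTGGCGC on both strands and was found in 20 of 35 G1/S members with a promoter (57.1%), in 2.79% of all promoters and in 4.44% of those of the genes tested. The cell cycle homology region of mitotic genes (CHR) was searched as TTTGAA on both strands and was found in 21 of 33 G2/M members (63.6%), in 15.4% of all promoters and in 9.82% of those of the genes tested. Both stretches end at the base before the start and lie on the minus strand, MCM7 at chr7:100101398-100101597 and DLGAP5 at chr14:55191586-55191735, with the matched letters in capitals.
MCM7: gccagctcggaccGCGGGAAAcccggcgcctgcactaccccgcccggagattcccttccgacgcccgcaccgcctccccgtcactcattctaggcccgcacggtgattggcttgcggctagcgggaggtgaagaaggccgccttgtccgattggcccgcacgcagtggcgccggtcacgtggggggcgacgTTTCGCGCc
DLGAP5: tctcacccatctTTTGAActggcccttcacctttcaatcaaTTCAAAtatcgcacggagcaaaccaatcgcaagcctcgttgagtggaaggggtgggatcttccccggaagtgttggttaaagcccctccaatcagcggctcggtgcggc
Each of these stretches held 2 matches. Here too the shares depend on which genes the lists hold, and a relation to the response difference was not tested.

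**Figure D3:**
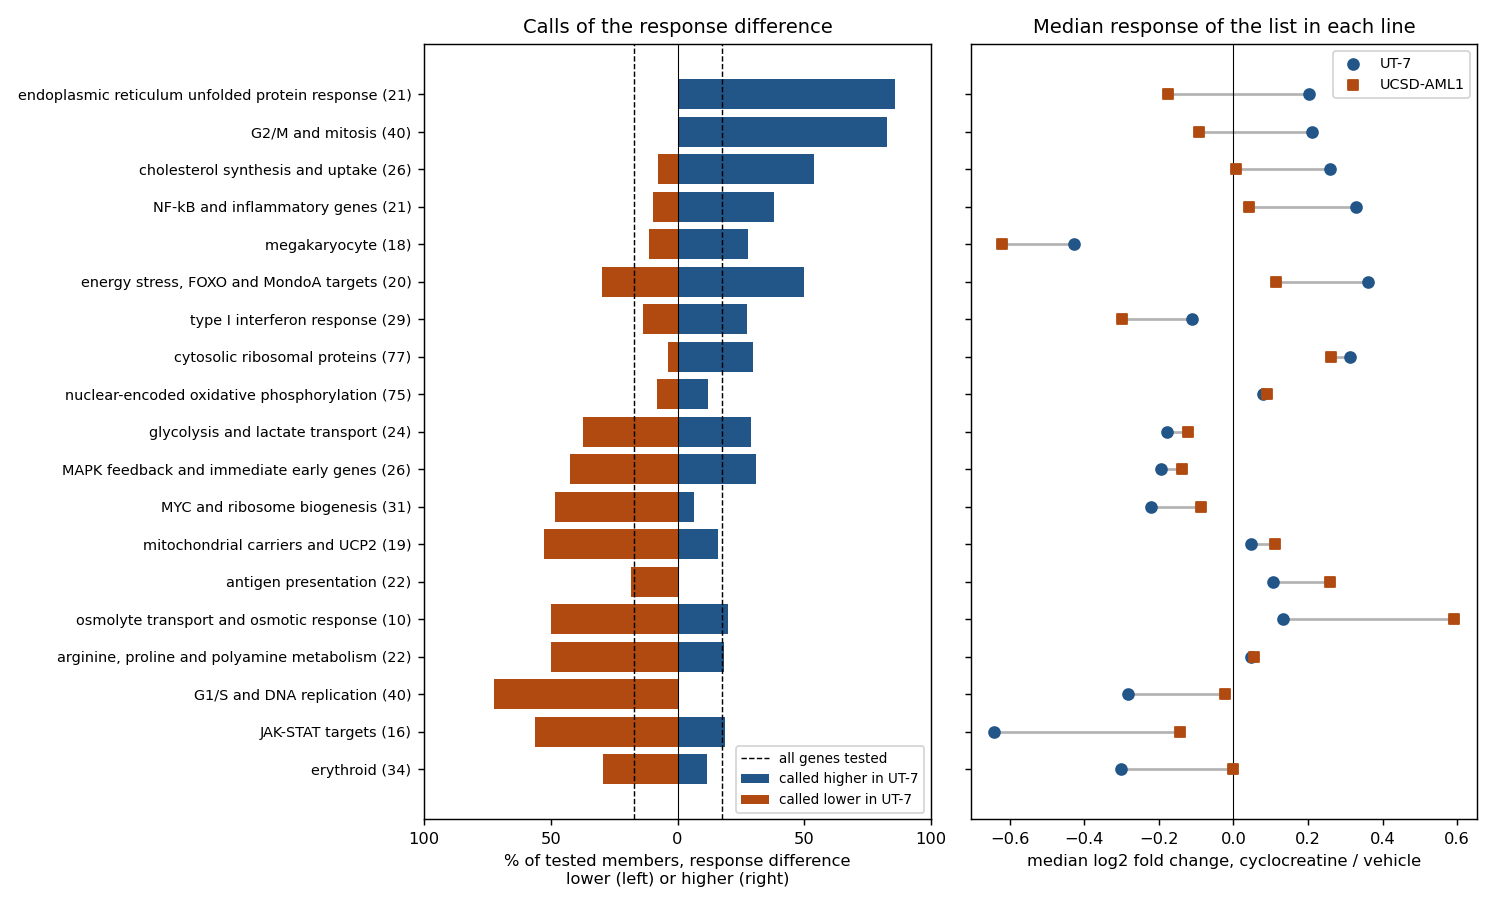
Each row is a gene list with its number of tested members. The left panel gives the percent called with a lower response in UT-7 (left of 0) or a higher one (right of 0) against all genes tested (dashed lines), and the right panel the list's median response in each line; the unfolded protein response and G2/M lists have medians on opposite sides of 0 in the lines.

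Most cholesterol genes rose in UT-7. The pathway makes sterols from acetyl-CoA and is run by the factor SREBP2, which is released when sterols in the endoplasmic reticulum are low. Of 26 tested genes, 14 had a higher and 2 a lower response in UT-7 (61.5% called, against 34.9% of all genes, median 0.29). Of genes with at least 5 CPM in both vehicle groups, 45.8% were called. In UT-7 19 rose and 3 fell, against 10 and 4 in UCSD-AML1. HMGCS1, a synthase early in the pathway, stood in UT-7 at 195, 200.1, 200.2 and 203 CPM with vehicle and 322, 327, 298.7 and 320.0 CPM with cyclocreatine. UCSD-AML1 gave 157, 150.4, 167 and 155 CPM with vehicle and 129, 127, 128 and 128 CPM with cyclocreatine, and the groups of each line stood apart, up in UT-7 and down in UCSD-AML1 (difference 0.97 ± 0.04, adjusted p = 2.64e-30).

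The sterol oxidase MSMO1 rose in both lines and further in UT-7 (0.80 ± 0.07). The demethylase CYP51A1 rose from 95.0 to 108 CPM in UT-7 and fell from 16.1 to 10.2 in UCSD-AML1 (0.84 ± 0.09). A sterol regulatory element, searched as TCACNCCAC on both strands, was found in 1 of 19 members with a promoter, SREBF2, in 1.15% of all promoters and in 1.04% of those of the genes tested.

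Targets of JAK-STAT signalling, which carries the signal of hematopoietic cytokine receptors, mostly fell in UT-7. Of 16 tested, 3 had a higher and 9 a lower response in UT-7 (75.0% called, against 34.9% of all genes, median -0.38). In UT-7 1 rose and 14 fell, and in UCSD-AML1 2 rose and 8 fell. SOCS3, a feedback inhibitor of the pathway, stood in UT-7 at 43.5, 43.0, 45.8 and 41.4 CPM with vehicle and 21.3, 19.6, 16.6 and 20.3 CPM with cyclocreatine. Levels in UCSD-AML1 were 18.01, 17.5, 19.3 and 19.1 CPM with vehicle and 21.7, 25.3, 21.7 and 25.8 CPM with cyclocreatine. SOCS3 fell 2.24-fold in UT-7 and rose 1.28-fold in UCSD-AML1, so that the line with the higher vehicle level became the lower one (difference -1.52 ± 0.09, adjusted p = 1.62e-23).

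The kinase gene PIM3 also fell in UT-7, from 80.8 to 61.8 CPM, and rose in UCSD-AML1, from 75.3 to 95.0 (-0.72 ± 0.06). CCND3, a D-type cyclin, fell from 187 to 102 CPM in UT-7 and from 620.1 to 561 in UCSD-AML1 (-0.73 ± 0.04). MYC fell in both lines and further in UT-7, from 596 ± 16.1 to 372 ± 8.96 CPM against 395 ± 10.52 to 324 ± 9.75 (-0.40 ± 0.04). JUNB fell in UT-7 from 78.3 to 51.5 CPM and stood at 45.4 and 47.3 in UCSD-AML1, where it did not pass (-0.67 ± 0.07, adjusted p of the UCSD-AML1 response 0.35).

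Genes of MYC and ribosome biogenesis had 2 higher and 15 lower responses in UT-7 of 31 tested (54.8% called, median -0.14). Of all genes 34.9% were called, and of those with at least 5 CPM in both vehicle groups 45.8%. In UT-7 3 rose and 22 fell, against 5 and 16 in UCSD-AML1. MYBBP1A, a nucleolar protein, fell from 148 to 103 CPM in UT-7 (-0.49 ± 0.05). RRS1, a ribosome assembly factor, fell in UT-7 and rose in UCSD-AML1 (-0.48 ± 0.07), and POLR1B, a subunit of RNA polymerase I, fell further in UT-7 (-0.30 ± 0.05). Cytosolic ribosomal protein genes rose in both lines, 76 of 77 in UT-7 and 77 of 77 in UCSD-AML1. Their difference was small, with 23 higher and 3 lower in UT-7 (33.8% called, about the 34.9% of all genes) and a median of 0.06. With all 24 libraries in the fit 3 were called higher. The 23 became 36 without UT-7 cyclocreatine replicate 3 and 40 with a trend on transcript length removed, and the 3 lower ranged from 0, also without UT-7 cyclocreatine replicate 2 or 3, to 7 with library totals alone. RPL15 (0.22 ± 0.04), RPL7 (0.19 ± 0.04), RPL13A (0.23 ± 0.04) and RPS27A (0.16 ± 0.04) had the smallest p of the list. The call of RPL7 was lost with the GC trend removed (adjusted p = 0.0739) and that of RPS27A with all 24 libraries (0.0596), and ribosomal protein genes have many near-identical copies.

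Inflammatory genes that were called mostly had a higher response in UT-7. NF-kB factors drive cytokine genes after receptor or stress signals. Of 21 tested NF-kB and inflammatory genes, 8 had a higher and 2 a lower response in UT-7 (47.6% called, median 0.29). Of all genes 34.9% were called, and of those with at least 5 CPM in both vehicle groups 45.8%. In UT-7 11 rose and 4 fell, and in UCSD-AML1 5 rose and 7 fell. The 2 lower became 1 without any 1 of 7 single libraries and 4 without UT-7 cyclocreatine replicate 2, and the median ranged from 0.14 without UCSD-AML1 cyclocreatine replicate 1 to 0.52 without UCSD-AML1 vehicle replicate 3. CXCL8, the chemokine interleukin-8, stood in UT-7 at 32.05, 29.5, 31.1 and 33.2 CPM with vehicle and 70.1, 76.1, 67.97 and 78.4 CPM with cyclocreatine. In UCSD-AML1 it stood at 33.95, 30.8, 29.9 and 37.7 CPM with vehicle and 26.2, 26.7, 25.7 and 29.03 CPM with cyclocreatine. The vehicle libraries of the lines overlapped, and the treated ones stood apart, with a rise of 2.33-fold in UT-7 and a fall of 1.23-fold in UCSD-AML1 (difference 1.52 ± 0.08, adjusted p = 6.13e-24).

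The NF-kB subunits RELB and NFKB2 belong to the non-canonical pathway. RELB rose from 20.5 to 32.9 CPM in UT-7 and fell from 19.2 to 14.7 in UCSD-AML1 (1.08 ± 0.10). NFKB2 rose from 24.96 to 43.4 CPM in UT-7 and did not pass in UCSD-AML1 (46.9 to 45.7, adjusted p = 0.532), with a difference of 0.83 ± 0.07. The cytokine IL1B rose in UT-7 and fell in UCSD-AML1 (0.67 ± 0.05).

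Of 29 type I interferon response genes, 8 had a higher and 4 a lower response in UT-7 (41.4% called, near the 34.9% of all genes, median 0.14), and in UCSD-AML1 3 rose and 19 fell. The 4 became 2 without UT-7 vehicle replicate 2 and with all 24 libraries in the fit, and the median was 0.21 without UT-7 vehicle replicate 1. STAT2 (0.42 ± 0.06) and the ISG15 ligase HERC5 (0.74 ± 0.12) rose in UT-7 and did not pass in UCSD-AML1. IFI27 fell in UT-7 from a low level, 4.62 to 2.81 CPM, and rose in UCSD-AML1 from 153 to 171 (-0.88 ± 0.16).

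Of 22 antigen presentation genes, 0 had a higher and 4 a lower response in UT-7 (18.2% called, against 34.9% of all genes, median -0.16). The 4 became 7 without UT-7 vehicle replicate 2, and 2 were called higher with the GC trend removed. In UCSD-AML1 16 rose and 1 fell, in UT-7 5 and 2. The immunoproteasome subunit PSMB8 fell from 18.9 to 10.8 CPM in UT-7 and stood at 139.8 and 137 in UCSD-AML1 (-0.77 ± 0.08). The peptide transporter TAP1 fell in UT-7 (-0.48 ± 0.13), and B2M, the light chain of class I molecules, rose in UCSD-AML1 (-0.22 ± 0.04).

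Most erythroid genes fell in UT-7, the line that expressed KLF1 and EPOR, and moved both ways in UCSD-AML1. Of 34 tested, 4 had a higher and 10 a lower response in UT-7 (41.2% called, near the 34.9% of all genes, median -0.39). In UT-7 3 rose and 25 fell, against 7 and 9 in UCSD-AML1, where the other 18 did not pass. With the stricter filter on low counts, which kept 30 of these genes, the median difference was -0.26. SPTB encodes erythrocyte beta spectrin. It stood in UT-7 at 228, 235, 227 and 224 CPM with vehicle and 161.7, 154, 172 and 155 CPM with cyclocreatine. The UCSD-AML1 libraries read 4.47, 3.85, 3.76 and 4.50 CPM with vehicle and 13.5, 12, 13.2 and 10.8 CPM with cyclocreatine. SPTB fell in UT-7 and rose 2.98-fold in UCSD-AML1, where its level stayed far below that of UT-7 (difference -2.08 ± 0.10, adjusted p = 1.17e-28).

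HEMGN, a nuclear protein of erythroid progenitors, fell in both lines. In UT-7 it stood at 23.1, 24.4, 21.99 and 23.4 CPM with vehicle and 5.21, 5.90, 4.82 and 6.01 CPM with cyclocreatine. UCSD-AML1 gave 76.8, 75.1, 74.2 and 77.7 CPM with vehicle and 46.5, 42.6, 44.5 and 47.3 CPM with cyclocreatine. The fall was 4.23-fold in UT-7 and 1.68-fold in UCSD-AML1 (difference -1.33 ± 0.10, adjusted p = 2.92e-19). The mitochondrial iron importer SLC25A37 fell from 230.5 to 124 CPM in UT-7 and rose from 25.7 to 28.4 in UCSD-AML1 (-1.04 ± 0.06). EPB41, the membrane skeleton protein 4.1, did the same (-0.57 ± 0.04), and ZFPM1, the GATA1 cofactor FOG1, fell in UT-7 from 51.5 to 33.3 CPM and rose in UCSD-AML1 from 60.0 to 82.3 (-1.08 ± 0.07).

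Of 18 megakaryocyte genes tested, 10 fell in each line. Of these 18, 5 had a higher and 2 a lower response in UT-7 (38.9% called, near the 34.9% of all genes, median 0.26). The platelet collagen receptor GP6 fell further in UCSD-AML1, from 32.8 to 11.2 CPM against 50.7 to 39.6 in UT-7 (1.19 ± 0.09), as did GP1BA, the von Willebrand factor receptor chain (0.86 ± 0.11). PLEK, the platelet kinase substrate pleckstrin, fell further in UT-7 (-0.81 ± 0.06). The integrin ITGA2B rose in UT-7, from 921 to 1130 CPM, and did not pass in UCSD-AML1 (589.8 to 596), with a difference of 0.28 ± 0.04.

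Genes of energy metabolism showed large single differences without a common direction. Of 24 genes of glycolysis and lactate transport, 7 had a higher and 9 a lower response in UT-7. The share called was 66.7%, against 34.9% of all genes and 45.8% of genes with at least 5 CPM in both vehicle groups. Their median was -0.02, and positive once the GC trend was removed. PFKFB2 encodes a bifunctional enzyme that sets the level of the glycolytic activator fructose 2,6-bisphosphate. It stood in UT-7 at 32.1, 34.7, 32.4 and 34.3 CPM with vehicle and 24.9, 25.1, 28.5 and 26.04 CPM with cyclocreatine. Levels in UCSD-AML1 were 33.4, 37.2, 32.2 and 33.2 CPM with vehicle and 7.01, 8.27, 7.17 and 7.03 CPM with cyclocreatine. The vehicle libraries of the lines overlapped, and PFKFB2 fell 4.61-fold in UCSD-AML1 and 1.28-fold in UT-7 (difference 1.85 ± 0.10, adjusted p = 4.41e-27).

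The lactate exporter SLC16A3 stood in UT-7 at 193, 196, 196 and 188 CPM with vehicle and 99.0, 94.2, 84.7 and 97.2 CPM with cyclocreatine. In UCSD-AML1 it stood at 319, 318, 299.4 and 305 CPM with vehicle and 296, 303, 305 and 310.4 CPM with cyclocreatine, where the groups overlapped and the response did not pass (adjusted p = 0.393). The difference was -1.01 ± 0.05 (adjusted p = 1.76e-30). HK2, the inducible hexokinase, fell in both lines and further in UT-7 (-0.34 ± 0.05), and HK1 rose in UCSD-AML1, from 194 to 231 CPM (-0.29 ± 0.04).

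Of 20 energy stress, FOXO and MondoA target genes, which include KLF2 and KLF6, 10 had a higher and 6 a lower response in UT-7. The difference was thus called in 16 of 20, and the median was 0.19. Among all genes 34.9% were called, and among genes with at least 5 CPM in both vehicle groups 45.8%. The arrestin ARRDC4, a target of the glucose sensor MondoA, rose from 52.1 to 80.6 CPM in UT-7 and did not pass in UCSD-AML1 (115 to 114), with a difference of 0.65 ± 0.06. CDKN1B, the cell cycle inhibitor p27, rose in both lines and further in UT-7 (0.56 ± 0.06). CITED2, a coactivator that limits HIF activity, fell further in UCSD-AML1 (0.44 ± 0.04).

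Of 75 nuclear genes of oxidative phosphorylation, 9 had a higher and 6 a lower response in UT-7 (15 of 75 called, a lower share than the 34.9% of all genes, median -0.01). With library totals alone in place of TMM the 6 became 13. UQCRC2, a core subunit of complex III, rose further in UT-7 (0.27 ± 0.04), as did SDHA of complex II (0.22 ± 0.05). The ATP synthase subunit ATP5D rose in UCSD-AML1 and did not pass in UT-7 (-0.38 ± 0.06), and ATP5G1, another subunit, fell in UT-7 (-0.32 ± 0.06). Of 19 mitochondrial carriers, 3 had a higher and 10 a lower response in UT-7 (68.4% called, median -0.16), and the 10 became 6 with the GC trend removed and 4 with all 24 libraries in the fit. The dicarboxylate carrier SLC25A10 rose in UCSD-AML1, from 28.9 to 44.3 CPM (-0.57 ± 0.07), and SLC25A6, which exchanges ADP for ATP, rose in both (0.20 ± 0.04). The aspartate-glutamate carrier SLC25A13 rose in UT-7 and fell in UCSD-AML1 (0.31 ± 0.07), and the glutamate carrier SLC25A22 fell further in UT-7 (-0.30 ± 0.07), a call lost with the GC trend removed (adjusted p = 0.152).

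Arginine, the amino acid from which creatine synthesis starts, is split by arginase into urea and ornithine. Of 22 genes of arginine, proline and polyamine metabolism, 4 had a higher and 11 a lower response in UT-7. The share called was 68.2%, against 34.9% of all genes, with a median of -0.19. ARG2, the mitochondrial arginase, stood in UT-7 at 48.0, 45.5, 38.4 and 42.4 CPM with vehicle and 53.7, 51.9, 46.3 and 52.5 CPM with cyclocreatine. The UCSD-AML1 libraries read 18.3, 18.03, 19.9 and 18.5 CPM with vehicle and 54.0, 60.0, 60.2 and 61.4 CPM with cyclocreatine. ARG2 rose 3.15-fold in UCSD-AML1 from a lower vehicle level, and passed the level of UT-7, where it rose 1.17-fold with vehicle and treated libraries overlapping (difference -1.43 ± 0.08, adjusted p = 2.66e-23). OAT, which turns ornithine into a precursor of proline, fell further in UT-7 (-0.36 ± 0.05). Of the proline enzymes, ALDH18A1 rose in UT-7 (0.26 ± 0.04) and ALDH4A1 fell in UT-7 and rose in UCSD-AML1 (-0.36 ± 0.07).

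Creatine is also an osmolyte, and most genes of osmolyte transport and the osmotic response rose in UCSD-AML1. Of 10 tested, 2 had a higher and 5 a lower response in UT-7 (70.0% called, against 34.9% of all genes, median -0.17). In UCSD-AML1 8 rose and 1 fell, against 4 and 4 in UT-7. The taurine transporter SLC6A6 stood in UT-7 at 100.3, 102, 104 and 106 CPM with vehicle and 97.9, 99.3, 109 and 102 CPM with cyclocreatine. UCSD-AML1 gave 176, 185, 176 and 171 CPM with vehicle and 316, 319.8, 334 and 321 CPM with cyclocreatine. The UT-7 groups overlapped and those of UCSD-AML1 stood 1.82-fold apart (difference -0.88 ± 0.05, adjusted p = 1.88e-26). The inositol transporter SLC5A3 rose in both lines and further in UCSD-AML1 (-0.43 ± 0.06). The water channel AQP1 fell in UT-7, from 14.9 to 4.92 CPM, and rose in UCSD-AML1 from 9 to 76 counts over the group (adjusted p of the difference 9.55e-17). LRRC8A, a volume-regulated anion channel, differed by -0.19 ± 0.05, a call lost with the GC trend removed (adjusted p = 0.148).

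Of 4 creatine pathway genes tested, 0 had a higher and 1 a lower response in UT-7 (25.0% called, against 34.9% of all genes). SLC6A8, the creatine transporter, stood in UT-7 at 35.6, 33.2, 30.1 and 32.5 CPM with vehicle and 14.2, 13.9, 7.64 and 10.1 CPM with cyclocreatine. Levels in UCSD-AML1 were 8.54, 10.2, 3.83 and 9.002 CPM with vehicle and 1.87, 1.52, 1.83 and 1.05 CPM with cyclocreatine. It fell in both lines without overlap, and the difference of 0.81 ± 0.45 did not pass (adjusted p = 0.2). SLC6A8 has near-identical pseudogene copies. Vehicle replicate 3 of UCSD-AML1 was the lowest of its group, and without it the difference was 1.02 and passed (0.0133). CKB, brain-type creatine kinase, stood in UT-7 at 641, 651, 650.0 and 613 CPM with vehicle and 395, 381, 351 and 384 CPM with cyclocreatine. In UCSD-AML1 it stood at 429.6, 419, 369 and 393 CPM with vehicle and 281, 294, 292 and 290.4 CPM with cyclocreatine. It fell in both and further in UT-7 (-0.28 ± 0.05, adjusted p = 3.69e-05), but with the GC trend removed the difference was -0.08 and did not pass (0.0922).

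CKM, muscle-type creatine kinase (0.20 ± 0.17, adjusted p = 0.404), and GAMT, the second enzyme of creatine synthesis (-0.10 ± 0.20, 0.772), did not pass. CKMT1A and CKMT1B, near-identical genes of mitochondrial creatine kinase, had 0 counts in all 16 libraries, and CKMT2 and GATM were below the filter. MECOM went from 6.67, 7.46, 5.64 and 6.36 to 4.02, 3.83, 3.93 and 3.81 CPM in UT-7. In UCSD-AML1 it went from 411, 422, 432 and 398 to 340.2, 343, 347 and 342 CPM. It fell in both lines, and the difference of -0.46 ± 0.12 passed (adjusted p = 0.00106), though not with all 24 libraries in the fit (0.203).

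**Figure D4:**
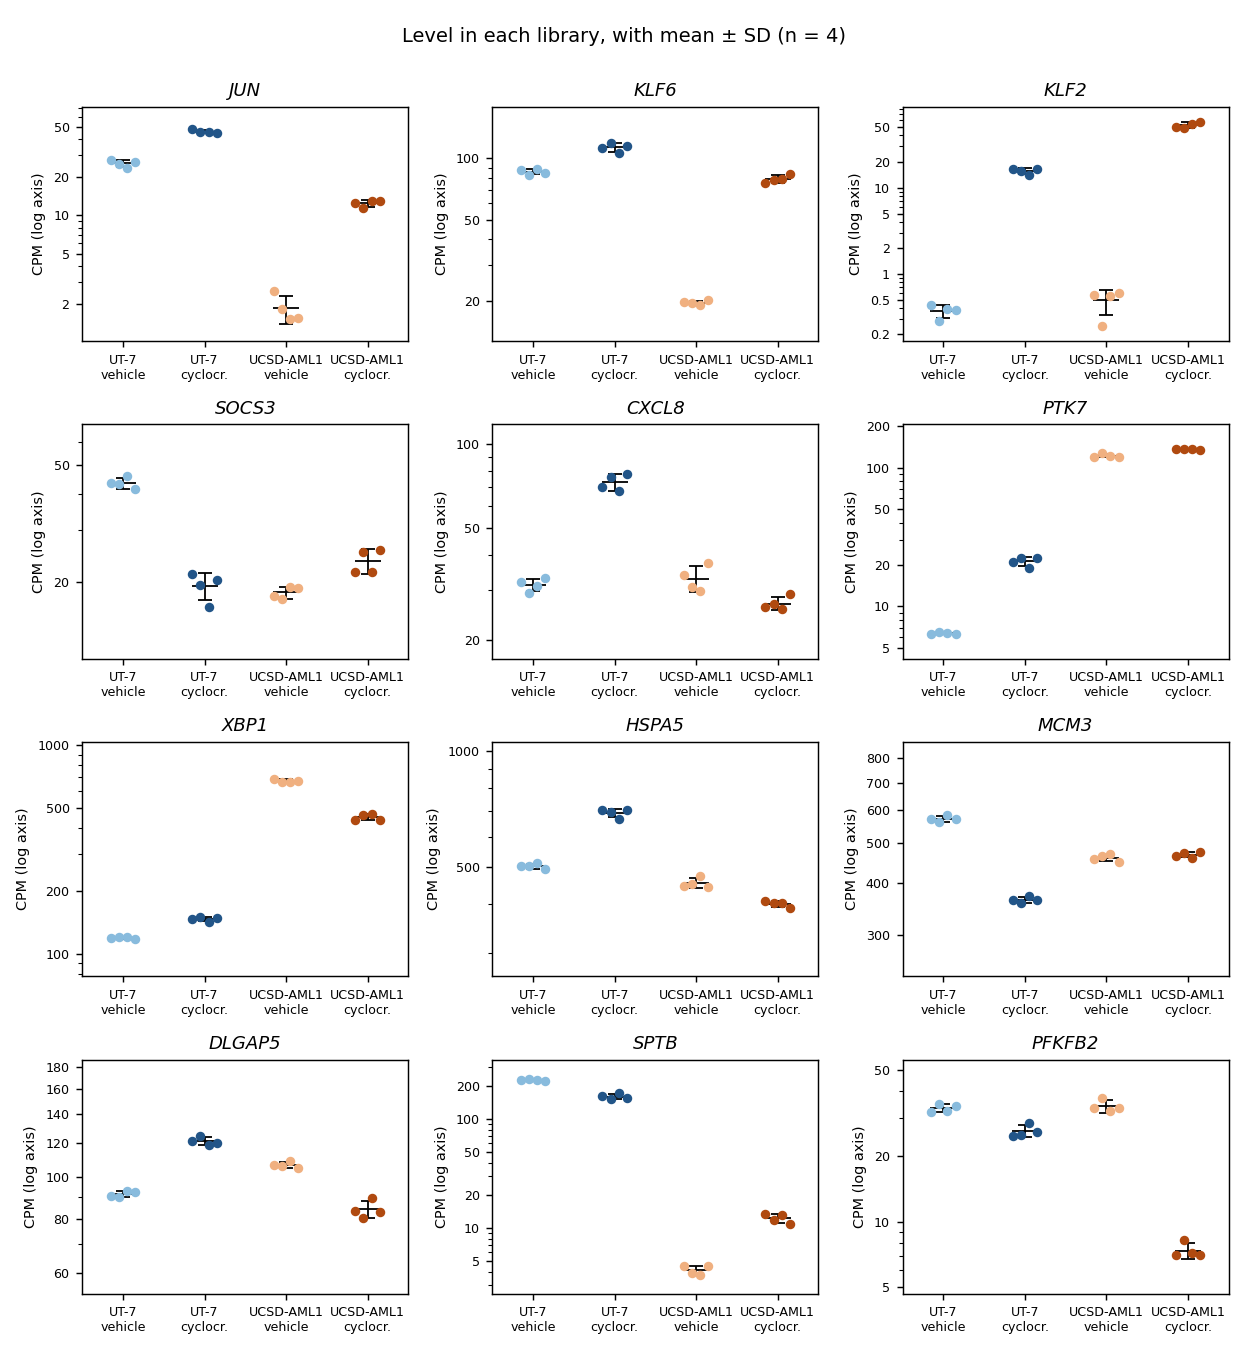
Points are the 4 libraries of each group, in CPM on a log axis, with the mean and SD as bars; light colours are vehicle and dark colours cyclocreatine. JUN, KLF6 and KLF2 rise in both lines, SOCS3 and SPTB fall in UT-7 and rise in UCSD-AML1, and XBP1, HSPA5 and DLGAP5 do the reverse.

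Other genes with large differences, and at least 5 CPM in the vehicle or treated group of each line, had varied roles. Of these, the histone gene HIST2H2BE, which has close sequence relatives, had the largest positive difference. It stood in UT-7 at 2.83, 2.06, 2.23 and 2.38 CPM with vehicle and 8.48, 7.57, 7.35 and 8.73 CPM with cyclocreatine. The UCSD-AML1 libraries read 7.28, 6.87, 4.94 and 6.99 CPM with vehicle and 3.41, 3.73, 2.93 and 3.80 CPM with cyclocreatine, so the groups stood apart in both lines and in opposite directions (difference 2.68 ± 0.20, adjusted p = 1.55e-19). SPRY3, of the Sprouty family that restrains receptor signalling, also turned over the order of the lines, rising from 2.97 to 5.87 CPM in UT-7 and falling from 5.48 to 3.20 in UCSD-AML1 (1.77 ± 0.21).

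PTK7, IL6R and PRKCH rose in UT-7 from vehicle levels far below those of UCSD-AML1. PTK7 encodes a receptor of Wnt signalling with an inactive kinase domain. It stood in UT-7 at 6.31, 6.54, 6.43 and 6.29 CPM with vehicle and 20.8, 22.5, 19 and 22.4 CPM with cyclocreatine. UCSD-AML1 gave 119, 127, 122 and 120.5 CPM with vehicle and 136, 136, 137 and 135 CPM with cyclocreatine (difference 1.57 ± 0.09, adjusted p = 1.11e-25). The treated UT-7 libraries stayed below every UCSD-AML1 library. IL6R, the interleukin-6 receptor, rose from 24.8 ± 0.434 to 65.1 ± 2.49 CPM in UT-7 and stood at 323 ± 17.3 and 323 ± 6.25 in UCSD-AML1, where it did not pass (adjusted p = 0.941; difference 1.40 ± 0.06). PRKCH, a protein kinase C, rose from 2.48 to 6.55 CPM in UT-7 against 114 to 121 in UCSD-AML1 (1.30 ± 0.15).

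DNAJC6, CHPF, PTAFR and CD84 fell in UCSD-AML1 and did not pass in UT-7. DNAJC6, which encodes the clathrin uncoating factor auxilin, fell from 23.2 to 7.48 CPM against 181 to 174 in UT-7 (1.58 ± 0.08). The chondroitin synthesis gene CHPF fell from 5.11 to 1.77 CPM (1.51 ± 0.21), and PTAFR, the receptor of platelet-activating factor, from 15.7 to 5.12 CPM (1.46 ± 0.16). The adhesion receptor CD84 fell from 98.2 ± 3.04 to 41.1 ± 1.10 CPM (1.27 ± 0.05). Its UT-7 libraries read 199.7, 195, 196 and 202 CPM with vehicle and 192, 206, 212 and 190.1 with cyclocreatine, which overlap.

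Among lower responses in UT-7, H1F0, the linker histone of resting cells, fell from 6.53, 7.39, 6.43 and 6.97 to 2.01, 1.44, 1.93 and 1.54 CPM in UT-7. In UCSD-AML1, where its vehicle level was 50.7-fold higher, it fell from 346 to 261 CPM (-1.57 ± 0.15). FAXDC2, a fatty acid hydroxylase domain protein, fell in both and further in UT-7 (-1.39 ± 0.14). FHDC1, a formin, and METRNL, a secreted protein, fell in UT-7 and rose in UCSD-AML1. FHDC1 had overlapping vehicle libraries in the lines and reached 3.76 CPM in UT-7 and 14.5 in UCSD-AML1 (-2.03 ± 0.18), and the difference of METRNL was -1.40 ± 0.14.

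Further genes passed with opposite signs in the lines. The interleukin-33 receptor IL1RL1 rose from 108 ± 1.95 to 150.5 ± 5.80 CPM in UT-7 and fell from 16.3 ± 0.344 to 11.3 ± 0.792 in UCSD-AML1 (1.01 ± 0.08). The kinase SRC (1.14 ± 0.17), the adhesion molecule NCAM2 (1.01 ± 0.11) and the small GTPase RAB30 of the Golgi (1.29 ± 0.16) did the same. The reverse held for 2 myeloid surface proteins. CD97, an adhesion receptor, fell from 16.3 ± 1.19 to 11.8 ± 0.380 CPM in UT-7 and rose from 59.7 ± 2.64 to 97.2 ± 3.57 in UCSD-AML1 (-1.17 ± 0.09), and the lectin receptor CLEC12A fell from 13.9 ± 1.39 to 8.34 ± 1.69 and rose from 62.7 ± 0.680 to 86.9 ± 2.86 CPM (-1.20 ± 0.10).

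For genes with at least 5 CPM in one line and under 0.5 CPM in the other, the difference rests on few counts in the other line. FCER2, the low-affinity IgE receptor CD23, rose in UT-7 from 17.98, 18.97, 16.3 and 16.3 to 58.4, 58.7, 53.2 and 57.8 CPM, while UCSD-AML1 had 0 counts over its vehicle and 11 over its treated libraries. FPR3, a formyl peptide receptor, fell in UT-7 from 27.1, 26.4, 24.1 and 25.4 to 12.1, 12.3, 8.68 and 11.7 CPM, with 12 and 0 counts in UCSD-AML1. For both genes no size of the difference is given, and their calls (adjusted p = 0.0493 and 0.0266) were lost with limma-voom (0.214 and 0.0734) and with all 24 libraries in the fit (0.152 and 0.0737). The call of FCER2 was also lost with the DESeq2 Wald test (0.115), without a filter (0.0674) and with the GC or length trend removed (0.0575 and 0.0511). That of FPR3 was also lost without any single UCSD-AML1 cyclocreatine library and without UCSD-AML1 vehicle replicate 2 (0.112), and that of FCER2 without any 1 of 13 single libraries (0.0503 to 0.11). The secretory pathway gene FAM114A1 rose from 4.99 to 13.6 CPM and the calcium sensor NCS1 from 8.70 to 20.6 CPM in UT-7, and neither passed in UCSD-AML1 (adjusted p = 0.739 and 0.141). The call of FAM114A1 was lost without UCSD-AML1 vehicle replicate 4 (adjusted p = 0.166).

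In UCSD-AML1 the chemokine receptor CCR6 fell from 8.09, 9.27, 7.73 and 9.34 to 2.06, 2.27, 2.22 and 1.90 CPM, with 24 and 21 counts over the UT-7 groups (1.91 ± 0.48, adjusted p = 0.000905). BTN1A1, a butyrophilin, fell from 759 ± 15.96 to 527 ± 8.64 CPM, with 2 and 9 counts in UT-7. SIGLEC1, a sialic acid receptor of macrophages, fell from 13.2 to 7.45 CPM, with 2 and 8 counts in UT-7. CRACR2B, a regulator of calcium entry, rose from 35.6 ± 2.91 to 53.4 ± 1.82 CPM, and UT-7 had 27 and 10 counts (-1.90 ± 0.49). The calls of the difference for BTN1A1 and SIGLEC1 were each lost without UT-7 cyclocreatine replicate 4 (adjusted p = 0.0946 and 0.0824). They were also lost without UT-7 vehicle replicate 3 for BTN1A1 (0.0551), and without UT-7 vehicle replicates 1 or 4 or cyclocreatine replicate 2 for SIGLEC1 (0.0628, 0.0604 and 0.0909).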

How the data were processed

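RNA was extracted from the cell lines with RNeasy reagents and sequenced on an Illumina HiSeq instrument, per the labels' protocols. The authors deposited 1 table of whole-number read counts per gene symbol for each library, and FastQC, TopHat2 and RSEM with the GRCh37/hg19 build are listed, without versions, per the submitters' processing notes. The strand setting was not stated. Genes with copies of near-identical sequence or overlapping neighbours can therefore share reads.

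Of 25728 symbols, 13778 passed filterByExpr (minimum count 10, minimum total 15), which kept over 99.9% of the counts. Counts were fitted with edgeR 4.0.16 in R 4.3.3 (TMM, robust quasi-likelihood, 4 group means, 12 residual degrees of freedom), with the UT-7 response minus the UCSD-AML1 response as the contrast and Benjamini-Hochberg adjustment. Standard errors are the log2 fold change divided by the square root of the F statistic. The median biological coefficient of variation was 0.0324. On simulated data the fit was checked for recovery of known changes. Replicate pairs differed by more than counting noise (chi-square per degree of freedom 1.29 to 3.77), so none was counted as a copy. The largest values came from pairs with UT-7 cyclocreatine replicate 3 (2.67 to 3.77) or UCSD-AML1 vehicle replicate 3 (2.50 to 3.08). Alternatives were 8 other scalings, filters, tools and designs, including DESeq2 1.42.0 and limma 3.58.1, leaving out each of the 16 libraries, and 2 fits chosen after seeing the data that remove a lowess trend (span 0.3) of log counts on GC content or length.

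The members, gene lists and naming rules were chosen with earlier results of these data known. Named genes are the 12 per direction with the largest called difference and at least 5 CPM in a group (vehicle or cyclocreatine) of each line, 6 per direction with opposite calls, 4 per line expressed under 0.5 CPM in the other, 4 per direction whose order of lines turned over, the creatine genes and MECOM, and up to 4 per described list with the smallest p. A few genes named by these rules are not reported here. The other 8 libraries entered 1 alternative fit. Promoters are from RefSeq tables (GRCh38.p14) matched by symbol. Transcript length and GC content are those of the longest spliced GENCODE transcript of each symbol.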

Additional observations from a re-analysis of the deposited data

Results flagged for a closer look

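The response differed between the lines in 4808 genes by a test of the difference itself, and in 789 of them it was called in opposite directions. Single libraries were also set apart from the other 3 of their group by Dixon's ratio at its 95% critical value in 19 of 452 checks over the 113 named genes (4.2%), and chance gives about 1 in 20. In UCSD-AML1 with cyclocreatine, PFKFB2 stood at 8.27 CPM in replicate 2 (others 7.01 to 7.17), DNAJC6 at 8.21 and PTAFR at 5.80 in replicate 3, ALDH18A1 at 212.3 in replicate 3, and GAMT at 53.2 and MCM5 at 456.5 in replicate 1. In UCSD-AML1 with vehicle, SPRY3 stood at 6.82 CPM in replicate 1 (others 4.92 to 5.11), IL1RL1 at 16.8 and RELB at 21.22 in replicate 1, KLF2 at 0.252 and CKM at 6.75 in replicate 2, and CD97 at 55.8 in replicate 3. In UT-7 with cyclocreatine, PTAFR stood at 4.17 CPM in replicate 1, and FCER2 at 53.2, CITED2 at 387.2 and CDKN1B at 85.4 in replicate 3. In UT-7 with vehicle, OAT stood at 107.4 CPM and PSMB8 at 21.24 in replicate 2, and HK2 at 155.0 in replicate 3.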

How the results depend on the processing

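No called difference of a named gene changed sign under the alternatives run. That of GAMT, which was not called, turned to 0.02 with the GC trend removed and 0.03 without UT-7 vehicle replicate 2. Medians near 0 also changed sign in several lists, among them MAPK and immediate early genes, glycolysis and oxidative phosphorylation. Lower calls outnumbered higher ones with DESeq2 size factors or library totals alone. They also did so without a filter, with the stricter filter, with the DESeq2 Wald test and with all 24 libraries in the fit. The same held without some single libraries, such as UCSD-AML1 vehicle replicate 1 (2292 higher and 2311 lower). The number of differing responses was 4808 with DESeq2 size factors, 4859 with library totals alone, 4667 without a filter, 4696 with a stricter filter, 4382 with the DESeq2 Wald test, 4830 with limma-voom and 3351 with all 24 libraries in the fit. Differences of at least 1 on the log2 scale fell to 237 with the stricter filter, which tests fewer genes. Opposite directions were called in 466 genes and turned orders of the lines in 155 with all 24 libraries, and the cause was not tested. Leaving out each library in turn gave 4496 to 4787 differences, 2282 to 2465 higher and 2214 to 2351 lower, and 372 to 415 of at least 1. It gave 7508 to 8018 responses in UT-7, 6893 to 7523 in UCSD-AML1, 11967 to 12207 gaps with vehicle, 12005 to 12195 under cyclocreatine, 698 to 772 opposite directions and 226 to 251 turned orders.

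Replicate numbers did not pair the libraries: deviations of same-numbered vehicle and treated libraries correlated between -0.0688 and 0.0618 over 10595 genes. With the replicate number as a block, 4643 differences passed, 388 of at least 1, with 7755 responses in UT-7, 7184 in UCSD-AML1, 12013 gaps with vehicle, 12024 under cyclocreatine, 736 opposite directions and 232 turned orders. Depth limits the genes near the floor in one line, where counts over a group of 4 libraries were as low as 0.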

Other observations

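Some genes outside the lists described also had large differences. The genes named here were chosen after their values were seen. Of 39 genes of amino acid supply and the integrated stress response, 7 had a higher and 11 a lower response in UT-7. The share called was 46.2%, against 34.9% of all genes and 45.8% of genes with at least 5 CPM in both vehicle groups. The 11 became 7 with the GC trend removed, and the 7 higher became 4 with all 24 libraries in the fit. SLC7A11, the cystine importer, rose from 10.1 to 15.2 CPM in UT-7 and fell from 11.6 to 9.20 in UCSD-AML1, a difference of 0.93 ± 0.13 (adjusted p = 6.93e-09). The glutamine importer SLC1A5 fell from 534 to 351 CPM in UT-7 and rose from 304 to 323 in UCSD-AML1 (-0.69 ± 0.04, 8.62e-24). PPP1R15A, which restores translation after stress, moved in the same directions (-0.80 ± 0.07, 6.33e-17). Of 7 metallothionein and zinc genes tested, 3 had a higher and 0 a lower response in UT-7 (1 lower with the GC trend removed), at 42.9% called against 34.9% of all genes. MT2A, a metal-binding protein, rose in both lines, from 46.9 to 93.8 CPM in UT-7 and from 45.7 to 66.1 in UCSD-AML1 (0.47 ± 0.07, 2.11e-08); metallothionein genes are close copies of each other.

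Of 24 stem and progenitor regulators tested, 3 had a higher and 7 a lower response in UT-7 (41.7% called, near the 34.9% of all genes), with a median difference of -0.01. SPI1, the myeloid factor PU.1, started at like levels, 139.9 ± 6.10 CPM in UT-7 and 145 ± 6.74 in UCSD-AML1. It fell to 114 ± 6.47 in UT-7 and rose to 178 ± 6.29 in UCSD-AML1 (-0.58 ± 0.05, 5.97e-15). ERG, an ETS factor of stem cells, rose in both lines and further in UT-7, to 103 ± 1.92 CPM from 63.5 ± 1.69 (0.59 ± 0.06, 2.1e-14). GFI1B, a repressor of the erythroid and megakaryocyte lineages, fell in both lines and further in UT-7 (-0.57 ± 0.05, 2.22e-16). SREBF1, which drives fatty acid synthesis, fell in both lines and further in UT-7, from 243 to 129.8 CPM (-0.54 ± 0.04, 3.74e-17), where 19 of 26 cholesterol genes rose.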
